A study of Mus musculus with 10 samples.

Results

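A mouse embryonic stem cell line that lacks all of Dnmt1, Dnmt3a and Dnmt3b (TKO, for triple knockout; line 19-1, Dnmt1-/-Dnmt3a-/-Dnmt3b-/-) was compared with a line that lacks Dnmt1 (Dnmt1_KO, line 36, Dnmt1-/-). The comparison covered 2 of the 10 one-colour Agilent arrays of the series, 1 array for each line, chosen by their labels, and every gene that could be tested. The question was what loss of both de novo methyltransferases added to loss of the maintenance methyltransferase. Both arrays lay on the same slide and were scanned in the same pass. Another pair of lines gave a comparison that shares no array with it: a Dnmt3b knockout (Dnmt3b_KO, line 8bb, Dnmt3b-/-, 2 arrays) and wild-type J1 cells (J1, 2 arrays). The remaining 4 arrays came from wild-type cells with stable expression of Prdm14 and Dnmt3b1 (PRDM14_DNMT3B, line JP-23+3b-3, 2 arrays) or of Prdm14 without it (PRDM14, line JP-23, 2 arrays), and served to estimate the spread. Each group is 1 cell line, so a difference between lines cannot be told apart from a difference between clones. All groups were cultured feeder-free with serum and LIF, a cytokine that sustains self-renewal. Whether replicate arrays came from separate cultures is not stated, and the p-values rest on the spread between them, which may be technical alone.

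DNA methylation at CpG sites is set by Dnmt3a and Dnmt3b, which methylate unmodified DNA, and is copied after replication by Dnmt1, which acts with Uhrf1. Cells without Dnmt1 keep some methylation through the de novo enzymes, and cells without all of these enzymes are able to self-renew as embryonic stem cells. Methylated promoters of germline genes, imprinted genes and retroviral elements are among the best known targets of the system in these cells.

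The log2 level of a gene is its log2 intensity after subtraction of the array's 75th percentile. Differences are TKO minus Dnmt1_KO on that scale, and errors are standard errors (SE) of the limma fit over the 10 arrays. Since TKO and Dnmt1_KO have no replicates, each was assumed to vary as the 4 groups with 2 arrays do. A gene was called at a Benjamini-Hochberg adjusted p under 0.05 over 23811 genes tested. Between 50.0% and 56.0% of spots on an array were well above background, no spot was saturated, and the 75th percentile lay between 242.6 and 336.6 intensity units. Of 8 stem cell markers, Nanog had log2 levels of 5.93 in TKO and 5.998 in Dnmt1_KO, and Pou5f1, which encodes Oct4, had 5.78 in TKO and 5.22 in Dnmt1_KO. Both lines thus held these markers at levels far above background.

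The targeted genes were examined first. Dnmt3a had a log2 level of -6.37 in TKO, which was not well above background, against 0.56 in Dnmt1_KO. The 2 Dnmt3b_KO arrays had 0.24 and 0.26, and the 2 J1 arrays had -0.17 and -0.33. The Dnmt3a probe, at chr12:3914320-3914379 (mm9), was therefore at least 27.7-fold lower in TKO (adjusted p = 0.000106), and TKO was the 1 array of 10 on which it was not above background. Dnmt3b had log2 levels of 2.00 in TKO and 7.66 in Dnmt1_KO. Its level was 1.63 and 1.70 in Dnmt3b_KO and 7.61 and 7.57 in J1. Its brightest probe lies at chr2:153513403-153513462 (mm9), and the difference was -5.66 ± 0.11 (SE; adjusted p = 0.000106). The other 2 Dnmt3b probes differed by -5.45 and -5.81. TKO lay above both Dnmt3b_KO arrays on all 3 probes. Dnmt1 had log2 levels of -3.15 in TKO and -2.67 in Dnmt1_KO, against 1.30 to 1.83 on the other 8 arrays. The Dnmt1 difference of -0.47 ± 0.22 was not called (adjusted p = 0.282). Whether these probes lie inside the deleted exons was not determined here, since no mm9 annotation was used. Dnmt3l, a catalytically inactive cofactor of the de novo enzymes, had log2 levels of 6.86 in TKO and 6.23 in Dnmt1_KO and rose by 0.63 ± 0.13 (adjusted p = 0.0390), a call kept in 8 of 20 alternative settings. Uhrf1 had 6.31 in TKO and 5.96 in Dnmt1_KO and was not called (adjusted p = 0.133). Among the 12 genes of the methylation list, 1 rose and 2 fell, beside 9.08% called over all genes.

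**Figure D1:**
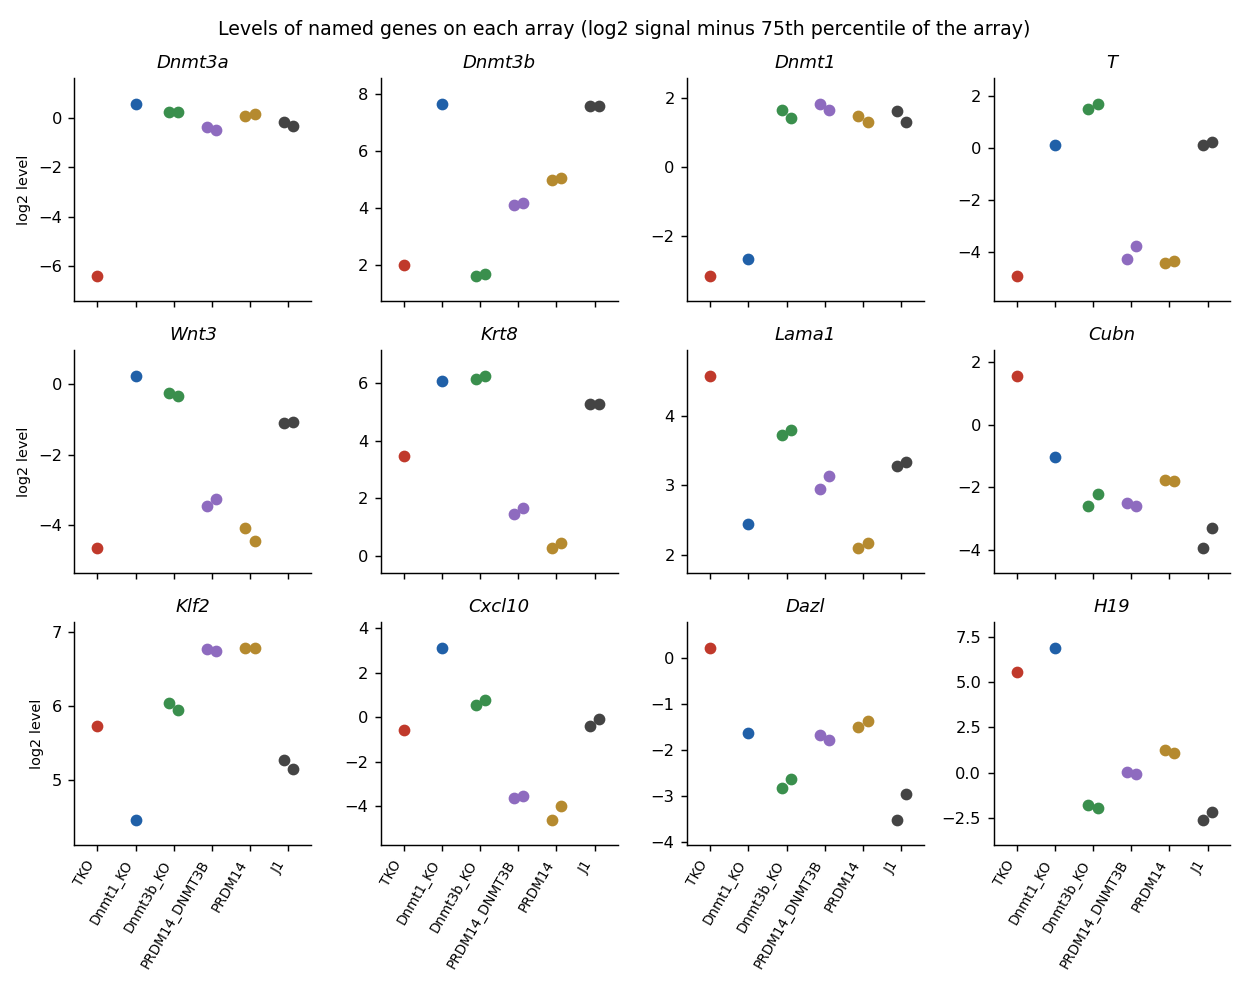
Log2 levels of 12 named genes on each of the 10 arrays, with 1 point per array and 1 colour per group. Dnmt3a is lowest in TKO at -6.37, Dnmt3b is low in TKO (2.00) and Dnmt3b_KO (1.63 and 1.70), and Dnmt1 is low in TKO (-3.15) and Dnmt1_KO (-2.67).

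In all, 2161 of the 23811 genes (9.08%) were called, 1019 of them higher in TKO (4.28%) and 1142 lower (4.8%). At an unadjusted p under 0.05 the count was 5501. Of the called genes, 529 (2.22%) were higher and 822 (3.45%) lower by at least 2-fold. The median difference over all genes was 0.08. Over the 18252 genes whose probe was well above background on all 10 arrays, the levels of TKO and Dnmt1_KO correlated across genes at r = 0.988, with a median absolute difference of 0.226. In the 4 replicate pairs r was 0.995 to 0.998 and the median absolute difference 0.113 to 0.160. A difference over 2-fold occurred for 800 of these genes (4.38%) between TKO and Dnmt1_KO, against 33 to 172 genes within the replicate pairs. The arrays of each replicate pair lay on different slides, while TKO and Dnmt1_KO lay on the same slide.

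Probes that were bright on 1 array alone made up part of the calls. Of 318 genes above background on the TKO array alone, 153 were called higher (48.1%), and of 339 above background on the Dnmt1_KO array alone, 197 were called lower (58.1%). The filter kept a probe above background on all arrays of some group. Probes bright on 1 array alone thus passed only for TKO and Dnmt1_KO, which have 1 array each. The direction of these 153 and 197 calls was set by the filter and is not a result, and all of them were over 2-fold. Among the 18252 genes above background on all 10 arrays, 732 were called higher and 713 lower (7.92%). Before the filter, every array had probes above background on it alone: 438 on the TKO array, 472 on the Dnmt1_KO array, and 248 to 439 on each of the other 8. A single array cannot tell a bright spot from a transcript, so the number of arrays above background is given below for named genes where it was not 10. Retested with probes above background on all 10 arrays, 1876 genes were called, 975 higher and 901 lower. With at least 2 arrays above background, a filter added after the data were seen, 783 were higher and 871 lower.

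**Figure D2:**
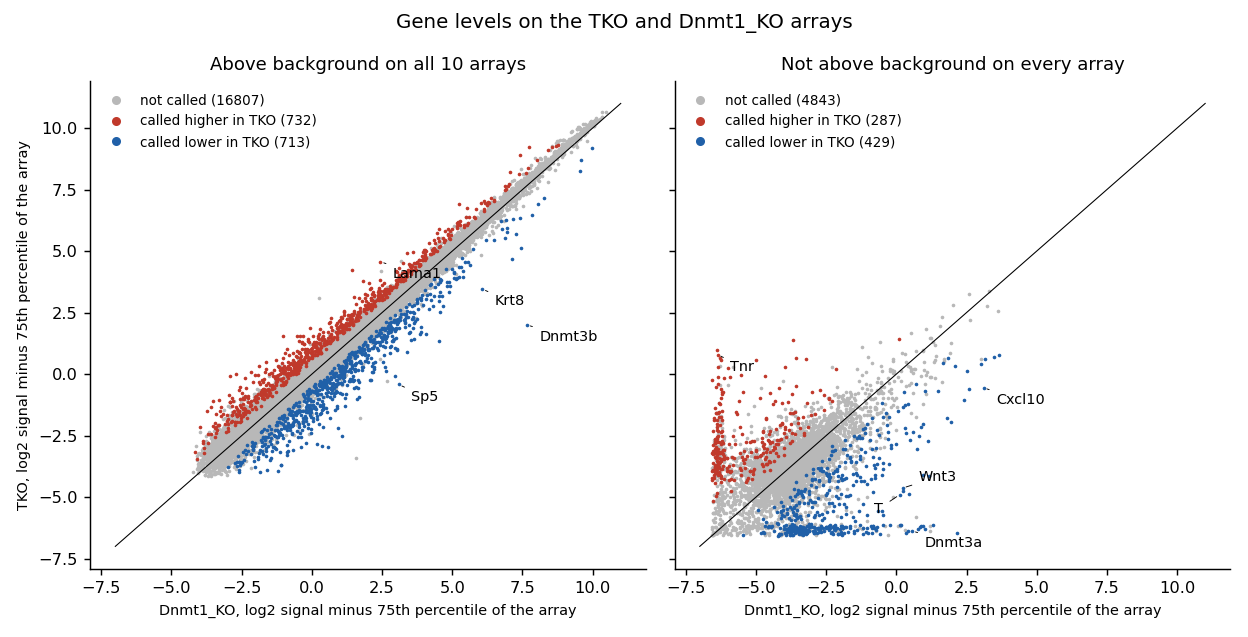
Log2 level in TKO (vertical axis) against Dnmt1_KO (horizontal axis) for every gene tested, with genes above background on all 10 arrays on the left and the other genes on the right. On the right, called genes crowd along the floor of 1 array, Tnr on the Dnmt1_KO floor and Dnmt3a on the TKO floor among them, and the line marks equal levels.

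Of the genes detected on all 10 arrays, the largest falls in TKO after Dnmt3b were those of Tgfb2 and Sp5. Tgfb2, a transforming growth factor beta ligand, had a log2 level of -2.96 in TKO and 0.57 in Dnmt1_KO, with 1.12 and 1.08 in Dnmt3b_KO and -0.48 and -0.46 in J1. It fell by 3.52 ± 0.18 (adjusted p = 0.00132), an 11.5-fold difference, and the PRDM14 arrays were lower than TKO at -3.50 and -3.76. Sp5, a transcription factor that Wnt signalling induces, had -0.42 in TKO and 3.09 in Dnmt1_KO, with 3.35 and 3.41 in Dnmt3b_KO and 1.73 and 1.51 in J1. It fell by 3.51 ± 0.16 (adjusted p = 0.00116), and TKO lay below all 9 other arrays for it. Septin4, Krt19, Gpat3, Mogat2, Rgs17, Edn1, Krt8, Eomes and Adgrg5 followed with falls of 3.25 to 2.55. The largest rises were those of Scn2a, Spink1 and Hhip. Scn2a, a neuronal sodium channel, had -0.06 in TKO and -2.93 in Dnmt1_KO, with -3.25 to -2.45 on the other 8 arrays, and rose by 2.87 ± 0.38 (adjusted p = 0.0116). Spink1, a secreted trypsin inhibitor, had 4.21 in TKO and 1.42 in Dnmt1_KO, with 4.85 and 4.95 in Dnmt3b_KO and 3.74 and 3.56 in J1, so that Dnmt1_KO was the low array. Hhip, an inhibitor of Hedgehog ligands, had 0.02 in TKO and -2.69 in Dnmt1_KO and rose by 2.70 ± 0.13 (adjusted p = 0.00116). Cubn, Pax6, Cox8c, F2, Edn2, Efhd1, Foxa1, Ceacam2 and Lama1 followed with rises of 2.59 to 2.13, and the F2 call was kept in 11 of 20 alternative settings.

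Without the requirement of detection on all 10 arrays, the fitted differences were larger and rested on fewer arrays. The 12 highest were Tnr, Ccl26, Pde4b, Olfr1133, Catsper3, Gnao1, Prickle2, Calcb, Ceacam12, Ctnna2, Zfp784 and Actl7b. Of these, 8 were above background on the TKO array alone, and Actl7b on 4 arrays. Tnr, a matrix protein of the nervous system, had a log2 level of 0.79 in TKO and -6.37 in Dnmt1_KO, was above background on 2 arrays, and was at least 33.0-fold higher in TKO (adjusted p = 0.0290). Its call was kept in 10 of 19 alternative settings. Zfp784, a zinc finger gene, was above background on 9 arrays and had 0.65 in TKO and -3.58 in Dnmt1_KO, with -4.33 to -3.31 in Dnmt3b_KO and J1. Apart from Dnmt3a and Dnmt3b, the lowest were Foxl2os, Cpne4, Ctsg, Tppp2, Rgr, Kprp, Slc17a4, Olfr60, Nedd9 and Klra8. Each of these 10 was above background on 1 or 2 arrays, with bounds from at least 10.1-fold lower for Klra8 to at least 83.2-fold lower for Foxl2os. Foxl2os and Cpne4 kept their calls in 8 and 9 of 19 settings.

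Of 19 genes tested of the trophoblast, the lineage that forms the placenta, 12 fell in TKO and none rose. Shares over all genes were 4.8% called lower and 4.28% higher. The median difference of the trophoblast genes was -1.80, against 0.08 over all genes. It was -0.94 after normexp background correction, -1.06 among probes above background on all 10 arrays and as low as -2.08 over the alternatives, with 9 to 13 falls. Krt8 and Krt18 are the keratins of simple epithelia. Krt8 had a log2 level of 3.46 in TKO and 6.07 in Dnmt1_KO, with 6.14 and 6.25 in Dnmt3b_KO and 5.28 and 5.29 in J1. It fell by 2.61 ± 0.15 (adjusted p = 0.00187). The 4 arrays of both PRDM14 lines lay lower still, at 0.28 to 1.65, so TKO fell between them and the other lines. Krt18 had 5.11 in TKO and 7.46 in Dnmt1_KO and fell by 2.36. Krt19 had 1.36 in TKO and 4.52 in Dnmt1_KO and fell by 3.16 ± 0.15 (adjusted p = 0.00116). Among transcription factors, Cdx2, which specifies trophectoderm, had -3.90 in TKO and -1.60 in Dnmt1_KO, with -0.79 to -0.55 in Dnmt3b_KO and J1, and fell by 2.31. Eomes had -0.99 in TKO and 1.59 in Dnmt1_KO and fell by 2.59, and Gata3 had -1.41 in TKO and 0.39 in Dnmt1_KO and fell by 1.80. Hand1, above background on 9 arrays and not in TKO, was at least 5.36-fold lower. Plac1, a placental gene above background on 3 arrays, had -3.64 in TKO and -0.68 in Dnmt1_KO and fell by 2.96, a call kept in 11 of 19 alternative settings. In 7 of the 12 called genes the Dnmt1_KO array lay outside the range of the 8 arrays other than TKO, while TKO lay within it, and in 2 genes the reverse held. These shares of 58.3% and 16.7% compare with 45.1% and 16.4% of all genes called lower. In the list of keratins and epithelial junctions 5 of 19 genes fell, 4 of them keratins, and 1 rose, beside 9.08% called over all genes.

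Mesoderm forms in the primitive streak, and genes of its ligands and of Brachyury fell in TKO. T, which encodes Brachyury and was above background on 5 arrays, had a log2 level of -4.90 in TKO, which was not above background, and 0.12 in Dnmt1_KO, with 1.48 and 1.68 in Dnmt3b_KO and 0.13 and 0.24 in J1. It was at least 20.4-fold lower in TKO (adjusted p = 0.00131). The PRDM14 and PRDM14_DNMT3B arrays had T at -4.40 to -3.77. Wnt3, the ligand that starts the streak, had -4.63 in TKO and 0.23 in Dnmt1_KO, with -0.26 and -0.34 in Dnmt3b_KO and -1.10 and -1.06 in J1. It was not above background in TKO alone of the 10 arrays, and was at least 21.9-fold lower there (adjusted p = 0.00116). Fgf8 had 0.07 in TKO and 2.19 in Dnmt1_KO and fell by 2.12 ± 0.17 (adjusted p = 0.00330). Evx1 fell by 1.00. Of 12 mesoderm genes tested, 5 fell and none rose, while the median difference was 0.13 (0.01 to 0.42 over the alternatives), and the other 7 members had positive differences. In the list of primed epiblast genes 4 of 21 fell and 3 rose, beside 9.08% called over all genes, with a median of -0.00322. Those that fell were Dnmt3b, Eomes, Fst and Fgf5. Fst, an activin antagonist, had 0.88 in TKO and 3.39 in Dnmt1_KO and fell by 2.51. Those that rose were Otx2, Lefty1 and Lefty2, by 0.65 to 0.77. Of germ cell specification genes 4 of 18 fell and 3 rose. Tfap2c and Ifitm3 fell by 1.31 and 1.34, and Dppa2, Dppa4 and Tcl1 rose by 0.85 to 0.96.

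Of 25 primitive endoderm genes tested, which mark the extraembryonic endoderm of the blastocyst, 9 rose, 3 fell and 13 were not called. Over all genes 4.28% were called higher and 4.8% lower. The median difference of the list was 1.23. It was 0.33 among probes above background on all 10 arrays, 0.75 after normexp background correction and at most 1.58 over the alternatives. Gata4 and Gata6 are the transcription factors of this lineage. Gata6 had a log2 level of -0.72 in TKO and -2.99 in Dnmt1_KO, with -4.30 and -4.10 in Dnmt3b_KO and -3.85 and -3.79 in J1. It rose by 2.27 ± 0.36 (adjusted p = 0.0190) and was above background on 6 arrays. Gata4 had -1.59 in TKO and -3.80 in Dnmt1_KO and rose by 2.20 ± 0.23 (adjusted p = 0.00570), with 9 arrays above background. Both genes were brightest in TKO of the 10 arrays. Lama1, a laminin chain of the basement membrane that this lineage lays down, had 4.57 in TKO and 2.44 in Dnmt1_KO, with 3.72 and 3.79 in Dnmt3b_KO and 3.28 and 3.34 in J1. It rose by 2.13 ± 0.14 (adjusted p = 0.00201). Cubn, an endocytic receptor, had 1.55 in TKO and -1.04 in Dnmt1_KO, with -3.92 to -2.20 in Dnmt3b_KO and J1, and rose by 2.59 ± 0.32 (adjusted p = 0.00956). Ttr, which encodes transthyretin, was above background in TKO alone of the 10 arrays and was at least 3.04-fold higher than in Dnmt1_KO. Sox7, above background on 8 arrays, was at least 3.52-fold higher and Pdgfra at least 2.73-fold higher, the Pdgfra probe being above background in TKO alone. Sox17 had -1.28 in TKO and -3.25 in Dnmt1_KO and was not called (adjusted p = 0.0540), with 2 arrays above background. Fst, Lrp2 and Cited1 fell by 2.51, 0.99 and 0.84. Over the alternative settings 5 to 13 of these genes rose and 1 to 4 fell. Whether fewer or more cells of a type, or less or more RNA per cell, gave such differences cannot be told apart in bulk RNA.

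Neural and Hox genes had positive medians. Of 12 neural genes, 3 rose and 1 fell, beside 9.08% called over all genes, with a median of 0.47 (0.26 to 0.53 over the alternatives). Pax6, a transcription factor of the neural tube and eye, had a log2 level of -1.08 in TKO and -3.53 in Dnmt1_KO, with -3.31 and -2.99 in Dnmt3b_KO and -2.52 and -2.37 in J1, and rose by 2.45 ± 0.18 (adjusted p = 0.00287). Hes5, a Notch target, rose by 1.53, and Sox1, a marker of neural precursors on chromosome 8, rose by 1.91 with a call kept in 8 of 19 settings. Nes, which encodes nestin, fell by 0.93. Of 39 Hox genes listed, 18 were tested, 2 rose and 1 fell. Their median was 0.89 (0.24 to 1.46 over the alternatives), and 0.69 with genes below background in 1 line set at their bound. Of the 18 tested, 14 were above background in TKO, 8 in Dnmt1_KO and 7 in both. A gene above background on 1 array of the pair alone passed the filter, so the filter itself can raise this median. Hoxa7 had -1.01 in TKO and -2.47 in Dnmt1_KO and rose by 1.45, a call kept in 13 of 20 settings. Hoxd3 was above background in Dnmt1_KO alone of the 10 arrays and was at least 4.89-fold lower in TKO. Hoxc9 was above background in TKO alone and at least 1.90-fold higher there.

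**Figure D3:**
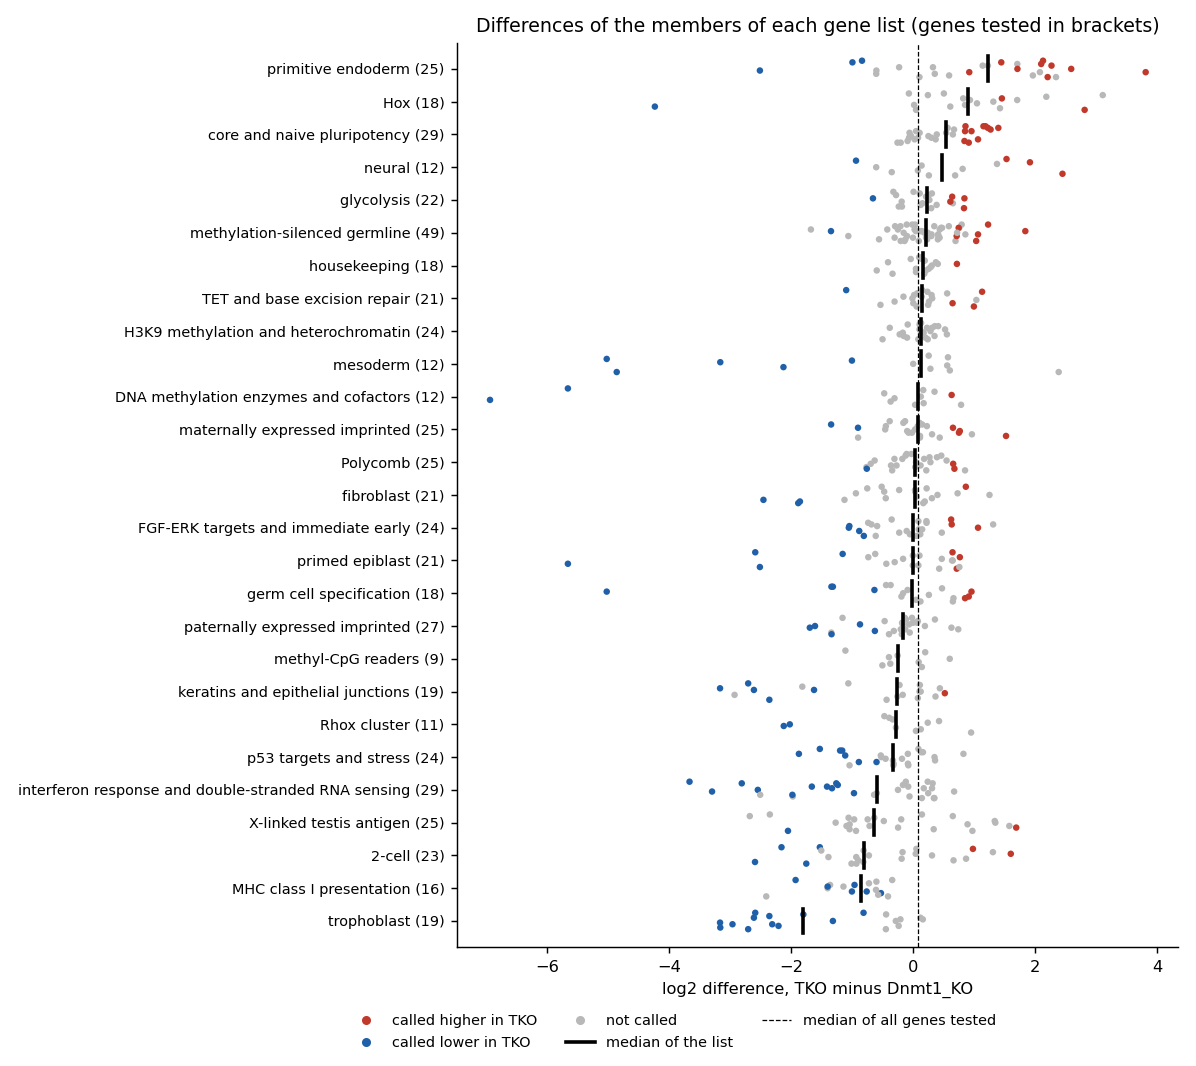
Log2 difference, TKO minus Dnmt1_KO, of each tested member of 27 gene lists, ordered by list median (black bars), with called genes coloured and the median of all genes dashed at 0.08. Trophoblast genes lie at the bottom with a median of -1.80 and primitive endoderm genes at the top with 1.23.

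Of 29 genes of the core and naive pluripotency list, 11 rose in TKO (8 to 14 over the alternatives), none fell, and the median difference was 0.54. Shares over all genes were 4.28% called higher and 4.8% lower. Gbx2, a homeobox gene of naive cells, had a log2 level of 1.64 in TKO and 0.25 in Dnmt1_KO, with 1.30 and 1.12 in Dnmt3b_KO and 1.73 and 1.52 in J1. It rose by 1.40 ± 0.16 (adjusted p = 0.00676). Klf2, a Krüppel-like factor that sustains the naive state, had 5.73 in TKO and 4.46 in Dnmt1_KO, with 6.03 and 5.93 in Dnmt3b_KO and 5.27 and 5.15 in J1, and rose by 1.27 ± 0.12 (adjusted p = 0.00469). Zfp42, also called Rex1, had 6.74 in TKO and 5.51 in Dnmt1_KO and rose by 1.23 ± 0.12 (adjusted p = 0.00460). For Gbx2 and Klf2 the TKO level lay within the range of the other lines and the Dnmt1_KO level below it. The same held for 9 of the 11 called genes, against 29.8% of all genes called higher. Nr0b1, Tdh, Fgf4, Dppa4, Dppa2, Esrrb, Tcl1 and Jam2 rose by 0.84 to 1.19. Nanog, Sall4, Sox2 and Utf1 were not called, with differences of -0.07, -0.09, 0.67 and 0.37, and Pou5f1 differed by 0.57 (adjusted p = 0.0598). Klf2 and Zfp42 lie on chromosome 8, whose genes were shifted upward in TKO as described below, and the part of that shift in their differences was not tested. Off chromosomes 8 and 11, 9 pluripotency genes rose. Among FGF-ERK and immediate early genes 3 of 24 rose and 4 fell, beside 9.08% called over all genes, with a median of 0.000858. Fgf4 rose by 1.06, Jun fell by 1.04 and Phlda1 fell by 1.05.

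Of 29 interferon-inducible genes and sensors of double-stranded RNA, 11 fell in TKO, none rose and the median was -0.59. Over the alternatives 6 to 12 fell, and the shares over all genes were 4.8% called lower and 4.28% higher. The median was -0.14 among probes above background on all 10 arrays, -0.17 off chromosomes 8 and 11, -0.21 with no filter on dim probes and -0.24 after normexp background correction. Cxcl10, a chemokine induced by interferon, had a log2 level of -0.56 in TKO and 3.11 in Dnmt1_KO, with 0.56 and 0.79 in Dnmt3b_KO and -0.38 and -0.10 in J1. It fell by 3.66 ± 0.32 (adjusted p = 0.00388), with 8 arrays above background. Gbp3, a guanylate-binding protein, had 0.60 in TKO and 3.15 in Dnmt1_KO and fell by 2.54 ± 0.33 (adjusted p = 0.0111), with 9 arrays above background. Ifih1, which encodes the double-stranded RNA sensor MDA5, was above background on 3 arrays and not in TKO, had -1.63 in Dnmt1_KO, and was at least 6.05-fold lower. Isg15, a ubiquitin-like modifier, had 1.91 in TKO and 3.89 in Dnmt1_KO, with 1.52 and 1.39 in Dnmt3b_KO and 1.01 and 0.77 in J1, and fell by 1.98 ± 0.33 (adjusted p = 0.0233). Dnmt1_KO lay outside the range of the 8 arrays other than TKO for all 11 called genes, and TKO also lay outside it for 5 of them. Of all 1142 genes called lower, Dnmt1_KO alone lay outside it for 515 and both lines for 194. Gbp2, above background on 6 arrays, fell by 2.81, a call kept in 12 of 19 settings. Genes of MHC class I antigen presentation had negative differences for 16 of 16 members, of which 6 fell, with a median of -0.86. Over the alternatives 2 to 9 fell. Tap2, a peptide transporter subunit, had 0.86 in TKO and 2.79 in Dnmt1_KO and fell by 1.93 ± 0.21 (adjusted p = 0.00652). Tapbp, Tap1, Psmb9, H2-D1 and H2-Q2 fell by 1.40 to 0.53, and the Tap1 call, with 8 arrays above background, was kept in 14 of 19 settings. Psmb8 had 0.60 in TKO and 3.01 in Dnmt1_KO and was not called (adjusted p = 0.112), with 6 arrays above background.

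Targets of p53 and stress genes followed with 7 of 24 falling, none rising and a median of -0.33. Over all genes 4.8% were called lower and 4.28% higher. Cdkn1a, which encodes the cell cycle inhibitor p21, had a log2 level of 2.12 in TKO and 3.31 in Dnmt1_KO, with 2.04 and 1.86 in Dnmt3b_KO and 1.24 and 1.03 in J1. It fell by 1.20 ± 0.18 (adjusted p = 0.0173). Atf3, a stress-induced transcription factor, had -1.70 in TKO and 0.17 in Dnmt1_KO and fell by 1.87 ± 0.19 (adjusted p = 0.00520). Perp had 3.35 in TKO and 4.87 in Dnmt1_KO and fell by 1.53. Over the alternative settings 4 to 10 of these genes fell and none rose.

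The germline list holds meiotic and germ cell genes listed as silenced by promoter methylation, which was not measured here for any member. Of 60 listed, 49 were tested, 6 rose, 1 fell and the median difference was 0.21. Over all genes 9.08% were called, 4.28% higher and 4.8% lower. Dazl, an RNA-binding protein of germ cells, had a log2 level of 0.21 in TKO and -1.63 in Dnmt1_KO, with -2.82 and -2.63 in Dnmt3b_KO and -3.51 and -2.95 in J1. It rose by 1.84 ± 0.28 (adjusted p = 0.0163). The 4 arrays of both PRDM14 lines had -1.77 to -1.36, near Dnmt1_KO. Tuba3b, a testis tubulin, had 3.20 in TKO and 1.97 in Dnmt1_KO, with -1.74 and -1.49 in Dnmt3b_KO and -1.20 and -0.84 in J1. It rose by 1.23 ± 0.26 (adjusted p = 0.0449), a call kept in 8 of 20 alternative settings. For Tuba3b both lines without Dnmt1 lay above all other arrays, and TKO was the higher of them. The synaptonemal complex genes Syce1, Syce2, Syce3 and Sycp3 rose by 0.71 to 1.06. Syce3 had 3.23 in TKO and 2.20 in Dnmt1_KO, with 0.52 and 0.49 in Dnmt3b_KO and -0.03 and -0.25 in J1. Sycp3 had 0.02 in TKO and -0.70 in Dnmt1_KO, against 1.09 and 1.05 in J1, so it was lower in both knockout lines than in J1. Tdrd5, of the piRNA pathway, had -1.54 in TKO and -0.19 in Dnmt1_KO and fell by 1.35. The other 42 tested were not called. Over the alternative settings 2 to 7 of the list rose and 1 or 2 fell.

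Promoter sequences are shown for rises only. They are those of the called germline genes that rose most, Dazl and Tuba3b, and of Tnr and Pde4b. The last 2 rose most of all genes that have a promoter in the table. Each sequence is a RefSeq window of 300 bases on GRCm38.p6, from 250 before to 50 after the gene start, written on the strand of the gene with each CG in capitals.
Dazl, chr17:50293571-50293870, minus strand: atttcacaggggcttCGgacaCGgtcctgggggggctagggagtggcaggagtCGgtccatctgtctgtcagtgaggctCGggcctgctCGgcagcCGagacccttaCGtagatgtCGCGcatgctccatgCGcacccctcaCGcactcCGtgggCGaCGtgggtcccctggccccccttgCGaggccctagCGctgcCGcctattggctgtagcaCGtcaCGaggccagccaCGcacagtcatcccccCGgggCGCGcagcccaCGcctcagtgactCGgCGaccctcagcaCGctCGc
Tuba3b, chr6:145615713-145616012, plus strand: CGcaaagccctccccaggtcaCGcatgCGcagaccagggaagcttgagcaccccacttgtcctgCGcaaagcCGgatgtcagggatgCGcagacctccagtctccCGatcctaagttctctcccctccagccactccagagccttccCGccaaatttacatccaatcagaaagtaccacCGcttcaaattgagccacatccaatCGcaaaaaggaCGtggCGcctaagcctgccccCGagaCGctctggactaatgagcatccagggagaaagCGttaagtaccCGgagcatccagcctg
Tnr, chr1:159523519-159523818, plus strand: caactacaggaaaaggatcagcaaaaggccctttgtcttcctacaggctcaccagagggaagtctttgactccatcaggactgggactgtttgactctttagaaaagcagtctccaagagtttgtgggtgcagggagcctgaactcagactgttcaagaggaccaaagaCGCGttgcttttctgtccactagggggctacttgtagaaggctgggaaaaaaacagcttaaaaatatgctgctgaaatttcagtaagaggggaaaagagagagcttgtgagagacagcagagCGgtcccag
Pde4b, chr4:102421305-102421604, plus strand: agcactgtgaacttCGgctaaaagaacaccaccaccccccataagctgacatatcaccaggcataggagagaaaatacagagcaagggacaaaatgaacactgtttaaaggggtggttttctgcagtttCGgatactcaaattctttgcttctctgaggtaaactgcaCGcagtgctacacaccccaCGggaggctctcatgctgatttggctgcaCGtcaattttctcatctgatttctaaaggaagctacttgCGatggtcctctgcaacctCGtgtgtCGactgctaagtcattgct
The Dazl window holds 28 CG pairs and the Tuba3b window 16, with 3 in Tnr and 8 in Pde4b. These counts do not separate the sets: among the 12 highest genes Gnao1 held 42, Ctnna2 38, Zfp784 27 and Prickle2 25, and the called germline gene Syce3 held 5. Both germline windows contain GCGCATGC, the core of the NRF1 motif, searched on both strands, and the Tuba3b window also contains GCGGGA, the core of the E2F6 motif. Pde4b, a phosphodiesterase, had a log2 level of 1.40 in TKO and -3.68 in Dnmt1_KO, with -6.44 to -4.31 in Dnmt3b_KO and J1, and was above background on 3 arrays. A match is a description of the letters and not a bound site. Over the 44 germline genes with a promoter, GCGCATGC occurred in 22.7% of windows, GCGGGA in 47.7% and the E-box CACGTG in 36.4%. Over the 12223 tested genes with a promoter these shares were 4.87%, 33.0% and 9.81%.

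Across genes, promoters of called genes held fewer CG pairs than those of all tested genes, in both directions alike. The median was 16 for 580 genes called higher and 16 for 647 called lower, against 19 for all 12223. CpG-rich windows, with an observed over expected ratio above 0.6 and at least 50% GC, made up 52.4% of the first set, 47.5% of the second and 60.7% of all tested. For genes detected on all 10 arrays the medians were 19, 19 and 20, closer together than before. Their CpG-rich shares still differed, at 60% of those called higher, 56.5% of those called lower and 67.5% of all tested. For calls over 2-fold among these genes the medians were 18 higher and 17 lower, and the shares 51.3% and 49.8%. The lower CpG-rich share of called genes thus remained among genes detected on all 10 arrays. GCGCATGC occurred in 3.97% of windows of genes called higher and 1.70% of those called lower.

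Other gene families were also examined, and methylation of their promoters was not measured. Of 25 X-linked testis antigen genes tested, 1 rose and 1 fell, near the 9.08% called over all genes. Their median was -0.64, and -0.19 with no filter on dim probes. Magea5, detected on 2 arrays, had a log2 level of -0.87 in TKO and -2.56 in Dnmt1_KO, with -6.58 to -5.78 in Dnmt3b_KO and J1, and rose by 1.69, a call kept in 10 of 19 settings. Fthl17a had 0.08 in TKO and 2.13 in Dnmt1_KO, with -0.61 and -0.74 in Dnmt3b_KO and -1.48 and -1.75 in J1, and fell by 2.05 ± 0.17 (adjusted p = 0.00356). Of 11 Rhox homeobox genes tested, 2 fell and none rose, beside 9.08% called over all genes. Rhox9 had 1.40 in TKO and 3.52 in Dnmt1_KO, with 1.82 and 1.72 in Dnmt3b_KO and 3.06 and 3.07 in J1. It fell by 2.12 ± 0.14 (adjusted p = 0.00211), and Rhox6 fell by 2.02. For Rhox9 the PRDM14_DNMT3B arrays, with added Dnmt3b1, were low as well at 2.02 and 1.92, and the PRDM14 arrays had 5.25 and 5.08. Of 23 genes of the 2-cell stage, 4 fell and 2 rose, beside the same 9.08%. Genes of the 2-cell stage had a median of -0.81 (-0.82 to -0.09 over the alternatives). Their copies are near-identical, so signal can be shared between probes. Gm4340 had 2.15 in TKO and 3.68 in Dnmt1_KO, with -2.33 and -2.01 in Dnmt3b_KO, -1.32 and -0.95 in J1, and 5.64 to 6.20 in both PRDM14 lines. Tcstv3, above background on 5 arrays and not in TKO, was at least 6.02-fold lower. Usp17lb, above background on 6 arrays, fell by 2.16. Tdpoz4, above background on 4 arrays and on neither of the pair, was called lower with no fold given. Zscan4f had 1.73 in TKO and 2.74 in Dnmt1_KO and was not called (adjusted p = 0.155).

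Imprinted genes were split by the parental allele they are expressed from. Of 27 paternally expressed genes tested, 5 fell and none rose, with a median of -0.17 and 21 of 27 differences negative. The shares over all genes were 4.8% lower and 4.28% higher. Peg3, a zinc finger gene, had a log2 level of 0.17 in TKO and 1.77 in Dnmt1_KO, with -0.24 and -0.29 in Dnmt3b_KO and -0.60 and -0.75 in J1. It fell by 1.61 ± 0.16 (adjusted p = 0.00507). Sfmbt2, a Polycomb-related gene, had 0.47 in TKO and 2.16 in Dnmt1_KO and fell by 1.69. Sgce fell by 1.34, Peg10 by 0.87 and Peg12 by 0.63. Of 25 maternally expressed genes, 4 rose and 2 fell, with a median of 0.08. H19, a long non-coding RNA, had 5.53 in TKO and 6.87 in Dnmt1_KO, against -1.78 and -1.93 in Dnmt3b_KO and -2.57 and -2.14 in J1. Both lines without Dnmt1 thus had H19 far above the other lines, and within the pair it fell by 1.34 ± 0.23 (adjusted p = 0.0242), a call kept in 13 of 20 settings. Grb10, a growth factor receptor adaptor on chromosome 11, had 0.16 in TKO and -1.36 in Dnmt1_KO and rose by 1.52 ± 0.15 (adjusted p = 0.00502). Igf2r, Mirg and Cdkn1c rose by 0.77, 0.75 and 0.65.

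Chromatin and metabolic lists followed, beside 9.08% called over all genes. Among 21 genes of TET oxidation and base excision repair, limma called 3 higher and 1 lower. Tet2, which oxidises methylcytosine, had a log2 level of 1.99 in TKO and 0.86 in Dnmt1_KO, with 2.20 and 2.38 in Dnmt3b_KO and 2.21 and 2.52 in J1, and rose by 1.13 with a call kept in 12 of 20 settings. Tet1 rose by 0.65, Nthl1 rose by 1.00 and Gadd45b fell by 1.10. None of 9 methyl-CpG readers was called by limma, with 1 higher and 2 lower at an unadjusted p under 0.05. None of 24 genes of H3K9 methylation and heterochromatin was called either, with 2 higher and 1 lower at an unadjusted p under 0.05. The largest difference was -1.11 for the reader Mbd5, above background on 8 arrays, and 0.55 for the H3K9 demethylase Kdm3a. Of 25 Polycomb genes, Jarid2 and L3mbtl2 rose by 0.68 and 0.66 and Phc2 fell by 0.76, and the Jarid2 and L3mbtl2 calls were kept in 9 and 11 of 20 settings. Of 22 glycolysis genes, 4 rose and 1 fell, and of 18 housekeeping genes Gusb rose by 0.72. The fibroblast list, which would report feeder cells, had 3 genes that fell and 1 that rose of 21, with a median of 0.03. The 3 were Tagln, Acta2 and Twist2, the last above background on 5 arrays. Tagln, a smooth muscle and cytoskeletal protein, had 4.69 in TKO and 7.14 in Dnmt1_KO, with 7.22 and 7.04 in Dnmt3b_KO and 6.04 and 6.01 in J1, and fell by 2.45 ± 0.14 (adjusted p = 0.00185).

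Among the autosomes, the largest shifts between the lines were those of chromosomes 8 and 11. The median difference of 1292 genes on chromosome 8 was 0.21 above that of the other autosomes, and 204 of them rose (15.8%) and 34 fell (2.63%). Chromosome 11 had a median 0.14 below the other autosomes over 1747 genes, with 48 risen (2.75%) and 94 fallen (5.38%). Over all genes 4.28% were called higher and 4.8% lower, so the fallen share of chromosome 11 was near that of all genes. Within the replicate pairs the shift of chromosome 8 was at most 0.01 and that of chromosome 11 at most 0.02. Some other chromosomes had smaller shifts that also passed those within the replicate pairs, such as chromosome 14 at 0.04 against 0.01. Relative to the mean of the 10 arrays, chromosome 8 stood at 0.07 in TKO and -0.19 in Dnmt1_KO, with -0.16 in Dnmt3b_KO and -0.19 in J1. It stood at 0.19 in PRDM14_DNMT3B and 0.24 in PRDM14, both above TKO. Chromosome 11 stood at 0.02 in TKO and 0.15 in Dnmt1_KO, with -0.03 in Dnmt3b_KO and -0.04 in J1. It stood at -0.01 in PRDM14_DNMT3B and -0.02 in PRDM14, so Dnmt1_KO lay above the 5 other lines. Along chromosome 8, ordered by probe position, 4 consecutive parts had medians of 0.25, 0.44, 0.25 and 0.01, and along chromosome 11 they had -0.12, -0.15, -0.17 and -0.18. The number of copies of these chromosomes was not measured, and its part in the shifts was not tested. Without the genes of chromosomes 8 and 11, 1692 genes were called, 720 higher and 972 lower.

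**Figure D4:**
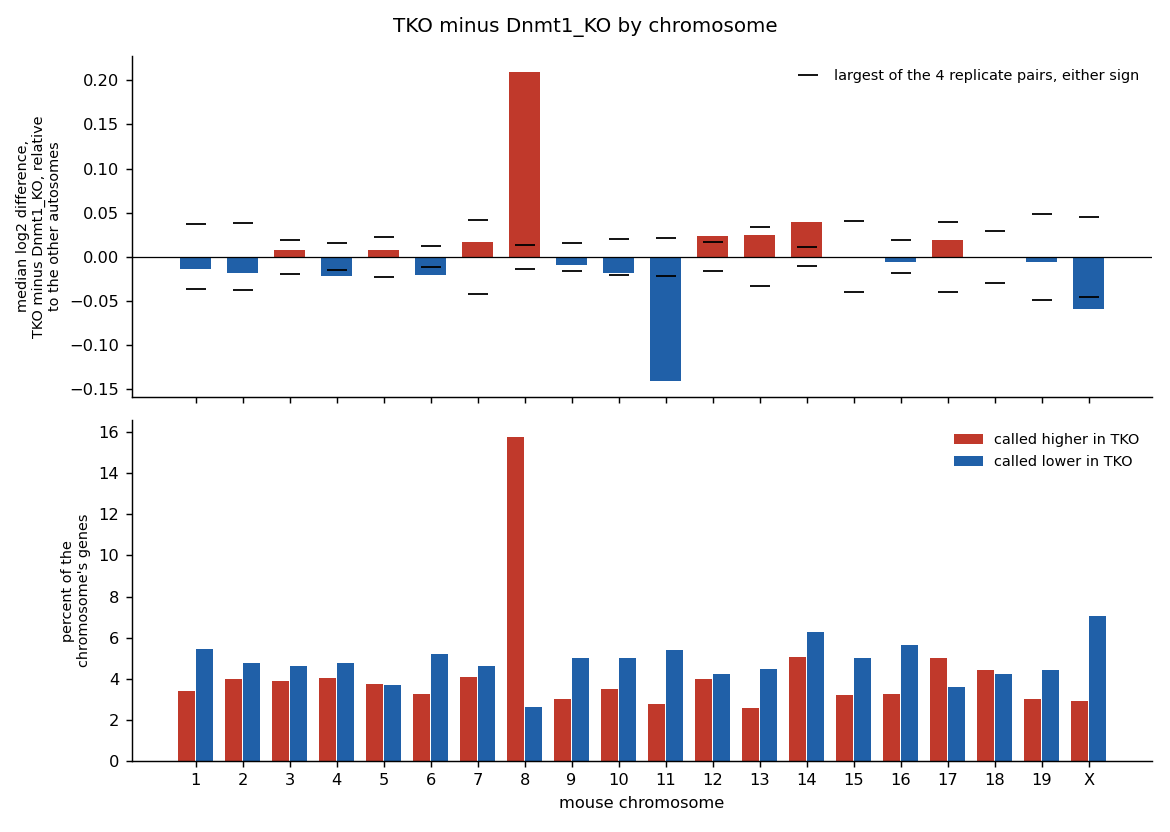
Median log2 difference of each chromosome's genes relative to the other autosomes (top) and the share of its genes called (bottom), for TKO minus Dnmt1_KO. Chromosome 8 stands at 0.21 with 15.8% of genes called higher and chromosome 11 at -0.14, both past the largest shift within the replicate pairs (black ticks).

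Loss of Dnmt3b in cells that keep Dnmt1 was set beside these values. The J1 arrays differed from all other lines for Hprt, as given below, so this comparison may hold more than loss of Dnmt3b. In Dnmt3b_KO against J1, 4973 genes were called (20.9%), 2561 higher (10.8%) and 2412 lower (10.1%). Of the 1019 genes higher in TKO, 252 (24.7%) were also higher in Dnmt3b_KO and 140 (13.7%) were lower. Of the 1142 lower in TKO, 174 (15.2%) were also lower and 291 (25.5%) were higher. The shared genes were 9.84% of those higher and 7.21% of those lower in Dnmt3b_KO. Both comparisons share no array but use the same estimate of each gene's spread, so their calls are not independent. A gene with a low estimate is called more readily in both, in the same or in opposite directions. Across the 18252 genes detected on all 10 arrays the differences of both comparisons correlated at r = 0.01, as a description over genes, which are not independent. In Dnmt3b_KO, 10 interferon genes rose and 2 fell with a median of 0.56, and 7 of 16 MHC class I genes rose and none fell. Trophoblast genes had a median of 0.11 there, with 4 higher and 3 lower, and the fibroblast list had a median of 0.89, with 11 of 21 genes higher and none lower. The pluripotency list had a positive median in both comparisons, with 14 of 29 genes higher and none lower in Dnmt3b_KO, and the Rhox list a negative median in both, with 6 of 11 lower in Dnmt3b_KO.

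**Figure D5:**
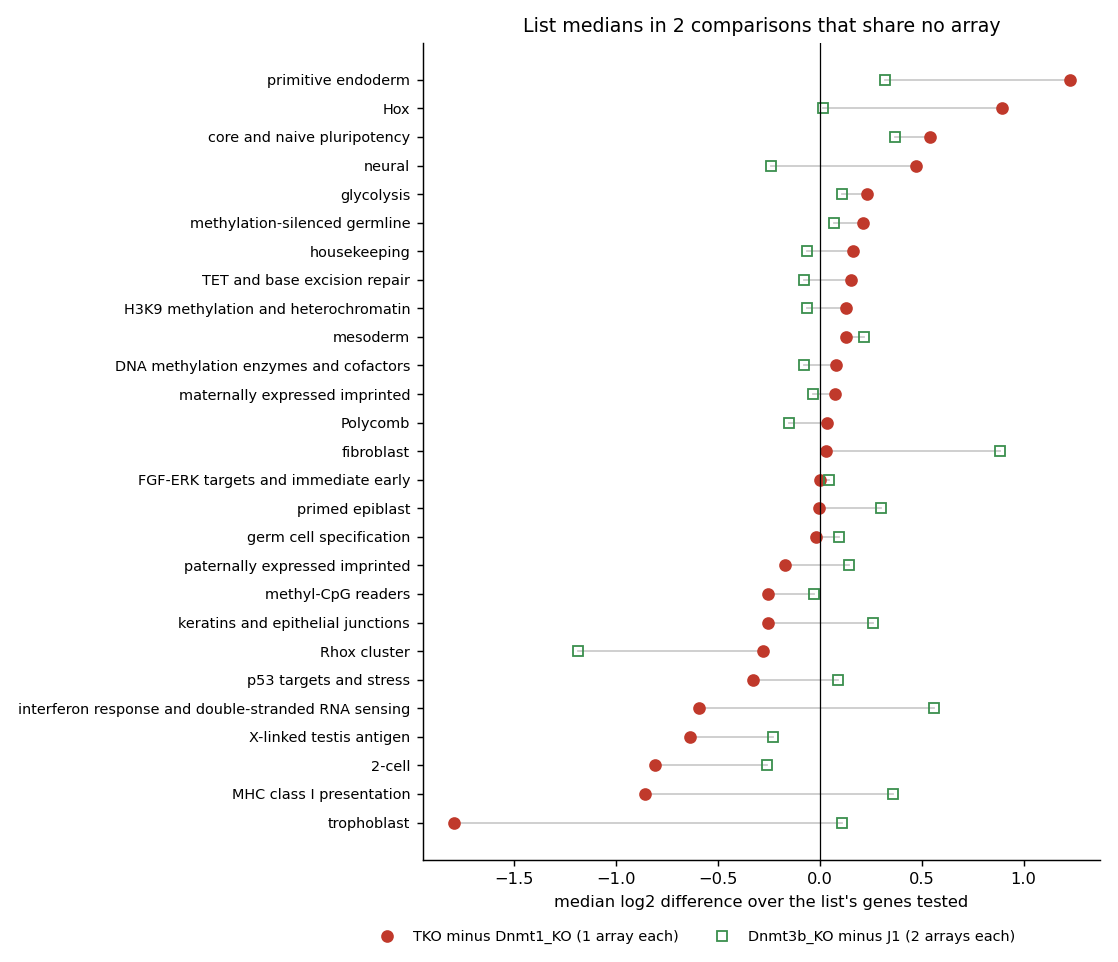
Median log2 difference of each gene list for TKO minus Dnmt1_KO (filled circles, 1 array each) and Dnmt3b_KO minus J1 (open squares, 2 arrays each). The medians of interferon genes lie at -0.59 and 0.56 and those of trophoblast genes at -1.80 and 0.11, while pluripotency genes lie at 0.54 and 0.37.

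The difference between both differences was tested for each gene, (TKO minus Dnmt1_KO) minus (Dnmt3b_KO minus J1). It was called for 1455 genes above 0 (6.11%) and 1776 below 0 (7.46%), and its median over all genes was 0.18, or 0.06 after quantile normalization. Eomes, Krt8, Krt19, Tgfb2, Sp5 and Tagln lay below 0, since each fell in TKO and rose in Dnmt3b_KO. Sp5 was at -5.27 (adjusted p = 0.000982) and Krt8 at -3.52 (adjusted p = 0.00127). Dnmt3b itself, removed in both comparisons, was at 0.27 and was not called (adjusted p = 0.257).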

How the data were processed

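Total RNA of 10 embryonic stem cell samples was labelled with Cy3 and hybridised to 1 array each, per the labels' protocols. The deposited scanner files give each spot's fluorescence intensity. They come from Agilent Feature Extraction 10.7.3.1, per the file headers, which corrected background within each array and did not normalize between arrays, with probe coordinates on mm9. The authors' deposited value table was read as log2 values. Set against log2 intensity it reached r = 0.999 or more on all arrays, and each column had a median of 4.24. It differed from quantile-normalized log2 intensity by at most 0.250, its exact scaling is unknown, and it served as an alternative. The submitters' processing notes name limma without a version.

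From log2 intensity the 75th percentile of each array was subtracted, after control and outlier spots were left out. Spots of 1 probe were averaged. A probe was kept if some group had it well above background on all its arrays (33113 of 55681), and the brightest probe stood for its gene. Of 6141 genes with several probes 482 were called, 424 of these with every probe on the same side and 4 with another probe called the opposite way. Names come from the scanner files, updated through RefSeq accessions (29191 probes matched). The 10 arrays entered 1 limma fit (limma 3.58.1, R 4.3.3) without covariates, with 4 residual and 1.73 prior degrees of freedom. With so few arrays, precision is limited throughout. If 1 array of the pair did not have the probe well above background, "at least" sets the brighter level against the higher of the dim probe's own level and the lowest level well above background. The code was tested on simulated data. TKO and Dnmt1_KO lay on slide 1 in the same scan pass, while slides 1 and 2 held several groups and slides 3 and 4 held 1 PRDM14 array each.

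The rule for named genes takes the methyltransferases with Dnmt3l and Uhrf1, the 12 highest and 12 lowest called genes whose probes agree, up to 3 called members of each of 27 lists by size of difference (1 member where none was called), and the 6 highest and 6 lowest of the difference of differences. The ranking among genes detected on all 10 arrays, further list members, and the filter on at least 2 arrays were added after the values were seen. The comparison, lists and rule were themselves chosen with earlier results of these data known. Alternatives covered normalization, background, filters, probe choice, variance model, slide and replicate blocks, and arrays left out. Promoters are from the RefSeq table on GRCm38.p6. Exon positions of probes were not analysed here.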

Additional observations from a re-analysis of the deposited data

Results flagged for a closer look

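The test of the difference between (TKO minus Dnmt1_KO) and (Dnmt3b_KO minus J1) called 1455 genes above 0 and 1776 below 0. These comparisons share no array, but they differ in Dnmt3a as well, which TKO lacks and Dnmt3b_KO keeps.

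Among named genes, Tnr stood at 7.30, Ccl26 at 5.52, Olfr1133 at 4.96 and Catsper3 at 4.93. The Tnr probe was above background on 2 arrays and those of the other 3 genes on the TKO array alone. Cyp11a1, which starts steroid synthesis, stood at 5.06 and was likewise above background on the TKO array alone.

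Hes3, a repressor of the Hes family detected on all 10 arrays, stood at 4.82. It had log2 levels of -1.11 in TKO and -2.91 in Dnmt1_KO, a rise, and of -2.92 and -2.50 in Dnmt3b_KO and 0.30 and 0.30 in J1, a fall.

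On the lower side Cpne4 stood at -8.72 and Ctsg at -8.21, each above background on 2 arrays, and Dnmt3a at -7.44. Nefm, a neurofilament subunit, stood at -7.45, and its probe was above background on 4 arrays and on neither J1 array. It had 0.13 in TKO and 2.50 in Dnmt1_KO, and -0.52 and -0.57 in Dnmt3b_KO against -5.80 and -5.46 in J1. Lce1i stood at -6.75, was likewise not above background in J1, and was not called between TKO and Dnmt1_KO (adjusted p = 0.285).

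Hprt stood at -8.54 without a difference called between TKO and Dnmt1_KO (adjusted p = 0.761). Its log2 level was 5.96 in TKO, 5.81 in Dnmt1_KO, 6.28 and 6.49 in Dnmt3b_KO and -2.34 and -2.25 in J1, so the 2 J1 arrays set this value. Both PRDM14 lines had Hprt at 6.065 to 6.565, so J1 stood apart from all other lines. Relative to the mean of the arrays, chromosome 14 also stood at -0.16 in J1 and at 0.01 to 0.06 in the other lines. Each comparison with J1 includes such differences, and their source was not tested.

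Except for Hes3 and Hprt, each of these genes was not above background on at least 1 array of the 4 groups compared, so its fitted difference rests on an undetected level and is not a measured size.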

How the results depend on the processing

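The count of 2161 genes called between TKO and Dnmt1_KO was 1321 in a fit with no PRDM14 arrays and 1093 with no filter on dim probes. Leaving out 1 array of a replicated group gave 1321 to 1921, the lowest without either PRDM14 array, and TKO and Dnmt1_KO, with 1 array each, could not be left out. The count over 2-fold was 658 after normexp background correction and 710 among probes detected on all 10 arrays, and 1071 to 1359 when an array was left out. Dnmt3b_KO against J1 gave 2977 calls with no filter and 2425 to 4125 when an array was left out, with 2425 and 2455 without Dnmt3b_KO replicate 1 or 2 and 2988 without J1 replicate 2. The difference of differences gave 1652 calls with no filter, and 2025 to 2561 when an array was left out, with 2025 and 2038 without Dnmt3b_KO replicate 1 or 2. Fewer arrays leave fewer residual degrees of freedom, and the cause of the other shifts was not tested. With slide as a block the counts were 1755 for TKO against Dnmt1_KO, 6314 for Dnmt3b_KO against J1 and 3773 for the difference of differences.

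Same-numbered arrays of the 4 replicated groups deviated together, with correlations of 0.261 to 0.507, but the labels do not say that a number marks a batch. In J1, PRDM14_DNMT3B and Dnmt3b_KO, replicate 1 lay on slide 1 and replicate 2 on slide 2. Correlations among these groups were 0.453 to 0.507, and those with PRDM14, on slides 3 and 4, were 0.261 to 0.344. The replicate spread behind the p-values thus crosses slides, while TKO and Dnmt1_KO share slide 1. The part of slides in that spread was not tested. With the replicate block, TKO against Dnmt1_KO gave 3036 calls, Dnmt3b_KO against J1 7125 and the difference of differences 4908. TKO and Dnmt1_KO carry no number that pairs them, so in their comparison the block alters the residual spread and not the difference.

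Sign changes occurred for Catsper3 with no filter (-0.64, and -0.18 in the difference of differences), for Hprt after quantile normalization (-0.00823) and in the authors' value table (-0.00554), and for Tdpoz4 after normexp (0.0112). Of 2452 results for single genes under the alternatives, 220 lost their call. Values near background have no reliable order, and a single array for each line limits every value.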

Other observations

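Probes for lincRNA intervals were tested in the same fit. Of 3225 such features, 221 were called between TKO and Dnmt1_KO (6.85%), against 9.08% of all genes, and 114 were lower in TKO.

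Of the 732 genes called higher and detected on all 10 arrays, TKO alone lay outside the range of the 8 arrays of the other lines for 173 and Dnmt1_KO alone for 262, with both outside it for 145. Of the 713 called lower, TKO alone lay outside it for 148 and Dnmt1_KO alone for 251, with both outside for 132.

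On the X chromosome, 28 of 961 genes were higher (2.91%) and 68 lower (7.08%) in TKO, against 4.28% and 4.8% over all genes. The median was 0.059 below that of the autosomes, and the shift within the replicate pairs reached 0.046.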
